A study of Mus musculus with 21 samples.

Results

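Of 12393 genes measured, 7 genes of the type 2 response were followed in the mouse lung: the receptor chains Il4ra and Il13ra1, the secreted proteins Retnla and Chil3, the mannose receptor Mrc1, the lipoxygenase Alox15 and the ribonuclease Rnase2a. They were chosen by name, and every probe set that the platform annotation gives to 1 of these symbols was taken, which made 13 of 22626 probe sets. Female BALB/c mice, 8 weeks old, received 1 intratracheal aspiration of MACA (Metarhizium anisopliae crude antigen, an extract of an insect-killing fungus), of bovine serum albumin (BSA), both at 20 µg in 50 µl, or of Hank's balanced salt solution (HBSS) alone. The whole left lung was taken 12 h or 3 h later and measured on arrays. At 12 h there were 3 MACA, 4 BSA and 4 HBSS arrays, at 3 h there were 4 MACA, 3 BSA and 3 HBSS arrays, and the labels give no genetic change for any group. The labels call the arrays biological replicates and contrast agents of high and low allergenicity. Because an array of whole lung sums all cells, fewer cells of a type and less RNA per cell cannot be told apart.

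Interleukins 4 and 13 drive type 2 inflammation of the airways, the form met in allergic asthma and in infection by parasitic worms. Both act through the receptor chain encoded by Il4ra, which pairs with the chain encoded by Il13ra1 on epithelium, smooth muscle and macrophages and signals through the transcription factor STAT6. Macrophages exposed to these cytokines take up a state called alternative activation, whose usual mouse markers are Retnla, Chil3, Mrc1 and Arg1, and Alox15 is a further cytokine-induced gene of macrophages. Rnase2a, also called Ear11, belongs to the eosinophil-associated ribonucleases, a mouse gene family of near-identical copies that macrophages also express.

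The promoters of the secreted proteins, of the receptor chain and of the ribonuclease are shown because these genes carry the differences described below, with Chil3 as the secreted protein that passed no test. They are the 250 bases before the start of each gene in the RefSeq annotation of GRCm38.p6, written 5′ to 3′ on the gene's own strand, and capitals mark a STAT motif. The 6 genes other than Alox15 were matched in the promoter table. The letters searched were TTCNNNNGAA, the spacing that STAT6 prefers, and TTCNNNGAA, the general STAT spacing, both of which read the same on either strand.
Retnla, chr16:48842359-48842608, forward strand: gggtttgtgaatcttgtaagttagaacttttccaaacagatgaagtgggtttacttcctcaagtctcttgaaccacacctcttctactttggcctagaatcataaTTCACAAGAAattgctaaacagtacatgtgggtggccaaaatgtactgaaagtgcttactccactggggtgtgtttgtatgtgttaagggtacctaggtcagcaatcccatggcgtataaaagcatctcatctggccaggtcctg
Chil3, chr3:106167565-106167814, reverse strand: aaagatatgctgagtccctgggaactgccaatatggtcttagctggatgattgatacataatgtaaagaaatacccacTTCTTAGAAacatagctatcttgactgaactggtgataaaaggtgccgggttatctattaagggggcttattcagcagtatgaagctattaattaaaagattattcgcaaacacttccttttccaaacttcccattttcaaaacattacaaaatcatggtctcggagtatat
Il4ra, chr7:125552021-125552270, forward strand: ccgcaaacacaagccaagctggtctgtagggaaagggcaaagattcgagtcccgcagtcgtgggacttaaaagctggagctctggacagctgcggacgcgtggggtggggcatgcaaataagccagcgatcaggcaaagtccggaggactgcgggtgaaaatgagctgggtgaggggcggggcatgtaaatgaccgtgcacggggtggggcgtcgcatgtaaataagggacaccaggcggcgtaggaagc
Rnase2a, chr14:51256113-51256362, reverse strand: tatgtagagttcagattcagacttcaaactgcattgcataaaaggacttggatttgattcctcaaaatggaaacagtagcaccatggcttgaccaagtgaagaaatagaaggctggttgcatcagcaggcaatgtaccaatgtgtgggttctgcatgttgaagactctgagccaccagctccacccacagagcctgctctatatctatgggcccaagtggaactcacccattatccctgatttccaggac
In windows of 300 bases that run 50 bases past each start, Retnla held TTCACAAGAA, whose first base lies at position -145. The same spacing stood in 2284 of 32851 RefSeq windows, or 6.95%. Chil3 held the general form TTCTTAGAA at position -172, a form found in 2726 windows, or 8.3%. Neither letter pattern was in the windows of Il4ra, Il13ra1, Mrc1 or Rnase2a. A match is only a run of letters, and a window without one says nothing about the factor.

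Levels are given as log2 of the quantile-normalized intensity plus 16, a scale that understates the change of dim genes. A noise level of 5.83 was set from the negative values of the arrays (intensity 40.9). Il4ra, Il13ra1, Retnla, Chil3 and Mrc1 lay over it on 21 of 21 arrays, Rnase2a on 3 arrays and Alox15 on 1 array. Before normalization the median intensity of an array ranged from 93.0 to 287. Arrays also fell into a high and a low technical set by the ratio of a pair of probe sets of 1 spiked hybridization control, which was 1.62 to 1.91 on 13 arrays and 0.939 to 1.22 on 8 arrays. The low set held all 4 HBSS 12 h arrays, BSA 12 h replicates 3 and 4 and MACA 3 h replicates 3 and 4, so MACA 12 h and HBSS 12 h have no value within a set. Values adjusted for the technical set, from a model with a set effect, therefore stand beside the results that it touches.

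**Figure D1:**
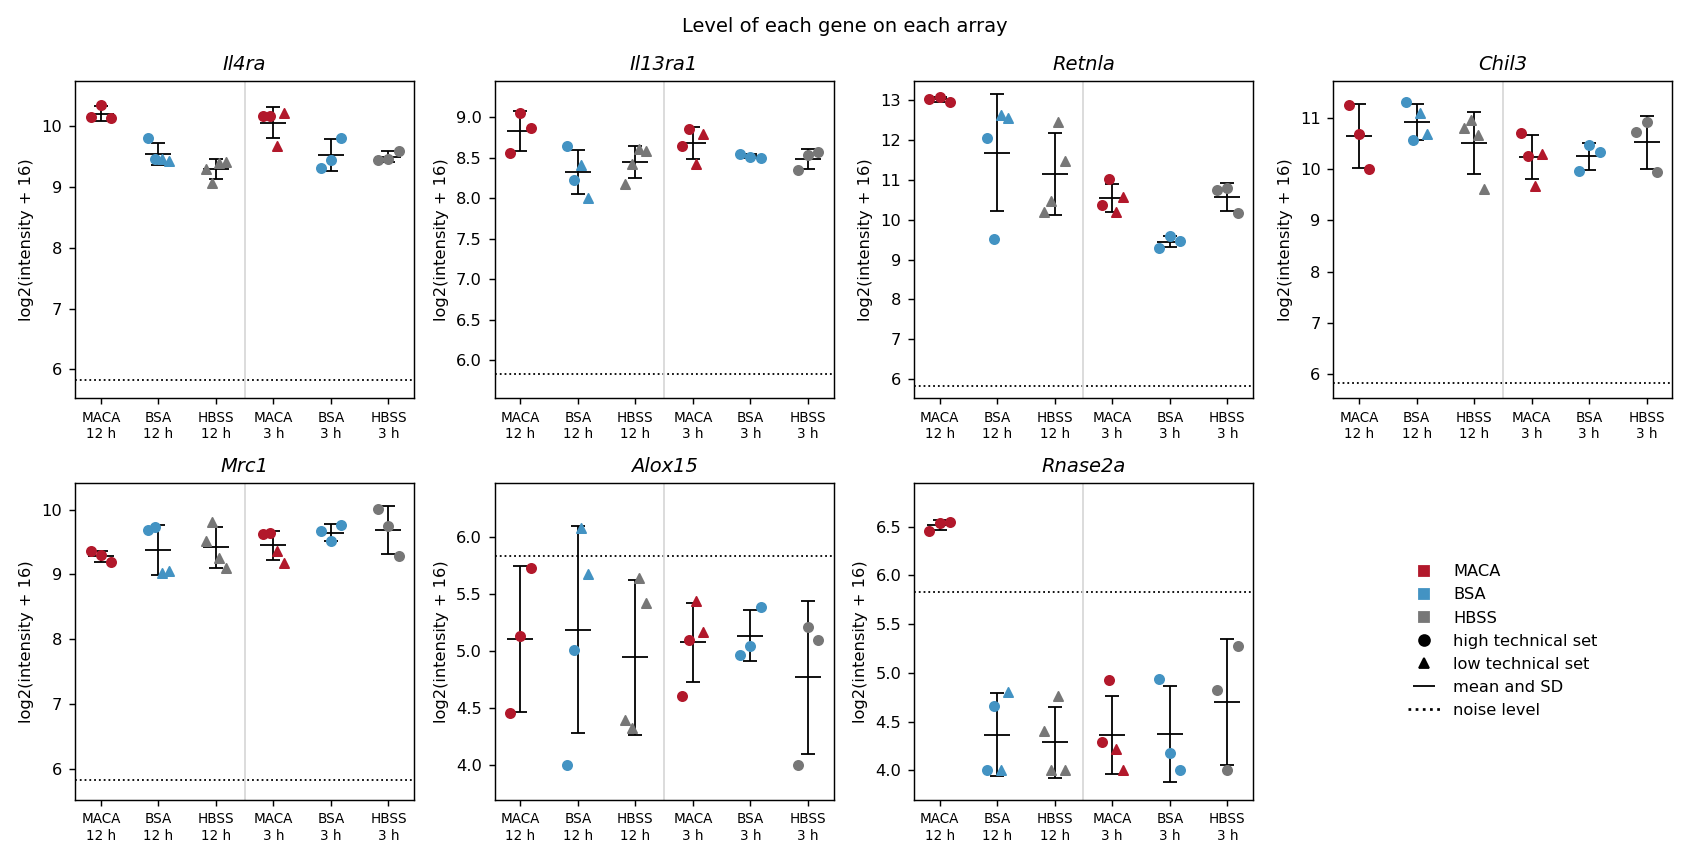
Level of each of the 7 genes on every array, as log2(intensity + 16), in the 6 groups from MACA 12 h on the left to HBSS 3 h on the right. Points are arrays, circles for the high and triangles for the low technical set, bars are the mean and SD of a group, and the dotted line is the noise level of 5.83. The 3 MACA 12 h arrays stand above all other arrays for Retnla and Rnase2a, while for Chil3 and Mrc1 each group overlaps its neighbours in the order of the means.

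Genes higher after MACA than after HBSS at 12 h were Il4ra, Retnla and Rnase2a, and at 3 h Il4ra was the 1 gene of the 7 that passed the test. The test was limma across 12393 genes with Benjamini-Hochberg adjustment and a threshold of 0.05. At 12 h the 3 of 7 genes stood against 10.2% of all genes that were called higher, and at 3 h the 1 of 7 stood against 4.84%. The median log2 fold of the 7 genes was 0.38 at 12 h, against -0.00 for all genes, and -0.03 at 3 h, against -0.02 for all genes. None of the 7 was lower in MACA than in HBSS lungs at either time (0 called by limma, beside 10.1% of all genes at 12 h and 3.28% at 3 h, and 0 at an unadjusted p under 0.05). Against BSA, Il4ra, Il13ra1 and Rnase2a were higher after MACA at 12 h, 3 of 7 genes beside 4.07% of all genes, and Il4ra was higher at 3 h, 1 of 7 beside 3.5%. None was lower against BSA, beside 5.58% of all genes at 12 h and 2.45% at 3 h (0 of 7 by limma at each time, and 0 at an unadjusted p under 0.05). The MACA groups are shared by the comparisons with HBSS and with BSA, so these are not independent of each other. Without scaling between arrays, the median of all genes shifted to -0.57 for MACA against HBSS at 12 h, Rnase2a alone kept its 12 h calls (1 of 7 against each control), and 0 of 7 genes were called at 3 h.

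**Figure D2:**
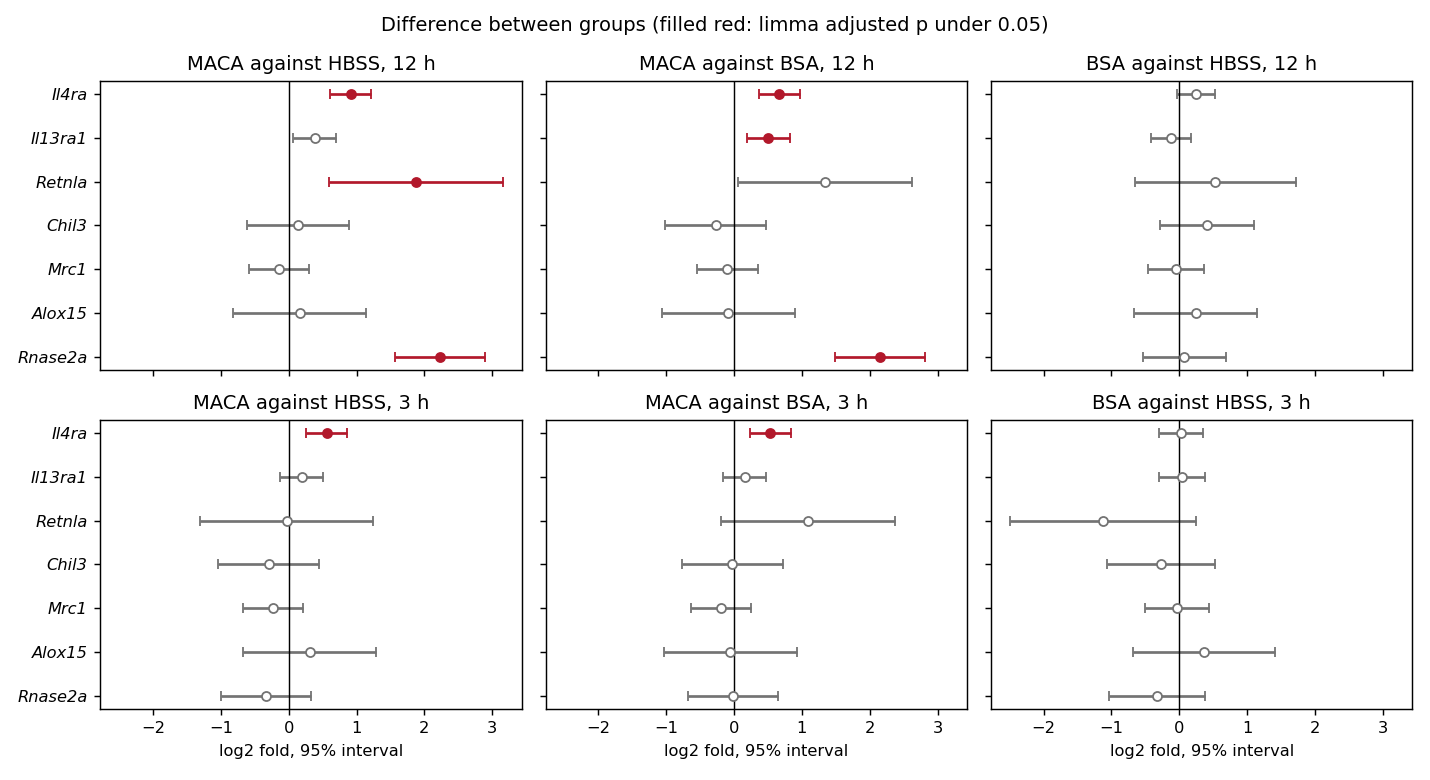
Difference between groups for each gene, as log2 fold with its 95% interval. The panels are MACA against HBSS, MACA against BSA and BSA against HBSS, each at 12 h and 3 h. Filled red points passed the limma test at an adjusted p under 0.05. Il4ra is filled in all 4 panels with MACA, from 0.91 against HBSS at 12 h to 0.53 against BSA at 3 h. No gene is filled in the BSA against HBSS panels, and the intervals of Chil3 and Mrc1 cross 0 in every panel.

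Il4ra, the chain shared by the receptors of IL-4 and IL-13, was higher in MACA lungs at both times and against both controls. At 12 h its level was 10.14, 10.33 and 10.12 on the MACA arrays, against 9.80, 9.46, 9.45 and 9.42 on the BSA arrays and 9.28, 9.06, 9.39 and 9.41 on the HBSS arrays. All 3 MACA arrays lay above all 8 others of that time. At 3 h the MACA arrays gave 10.17, 10.15, 9.66 and 10.22, against 9.31, 9.43 and 9.81 for BSA and 9.43, 9.45 and 9.59 for HBSS. MACA 3 h replicate 3 was the low array of its group, and BSA 3 h replicate 3 overlapped it. The group means were 10.20 ± 0.12 in MACA 12 h, 9.53 ± 0.18 in BSA 12 h, 9.29 ± 0.16 in HBSS 12 h, 10.05 ± 0.26 in MACA 3 h, 9.52 ± 0.26 in BSA 3 h and 9.49 ± 0.09 in HBSS 3 h (SD, n as above).

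Il4ra was 1.88-fold higher in MACA than in HBSS lungs at 12 h, a log2 fold of 0.91 ± 0.14 (SE; limma adjusted p = 0.000478). Against BSA at 12 h it was 1.59-fold higher, a log2 fold of 0.66 ± 0.14 (limma adjusted p = 0.00843). At 3 h the log2 fold was 0.56 ± 0.14 against HBSS (limma adjusted p = 0.0246) and 0.53 ± 0.14 against BSA (limma adjusted p = 0.0390). The 12 h call against HBSS held without each of the 21 arrays in turn, and adjusted for the technical set the log2 fold was 0.70 (adjusted p = 0.0185). The 12 h call against BSA was lost without MACA 12 h replicate 2 (adjusted p = 0.0578), and within the high set the log2 fold was 0.57 (adjusted p = 0.0784), and in a fit of only these groups the adjusted p was 0.0692. The 3 h calls rested on single arrays: the call against HBSS was lost without MACA 3 h replicate 2 (adjusted p = 0.0552) or 4 (0.0777) and without HBSS 3 h replicate 1 (0.0858), 2 (0.0749) or 3 (0.0525). The 3 h call against BSA was lost without MACA 3 h replicate 1 (adjusted p = 0.0659), 2 (0.0819) or 4 (0.110), BSA 3 h replicate 1 (0.177) or 2 (0.165), or HBSS 3 h replicate 2 (0.0507). Adjusted for the set, the 3 h log2 folds were 0.66 against HBSS (adjusted p = 0.0120) and 0.64 against BSA (adjusted p = 0.0247).

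Il4ra did not differ between the times past the test. The log2 fold of 12 h over 3 h was 0.15 in MACA lungs (limma adjusted p = 0.583) and -0.20 in HBSS lungs (adjusted p = 0.434). The MACA to HBSS difference was 0.35 larger at 12 h than at 3 h on the log2 scale, which did not pass (limma adjusted p = 0.355). The BSA to HBSS log2 fold was 0.25 at 12 h (adjusted p = 0.368), where the 4 arrays of each group did not overlap, and 0.03 at 3 h.

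A further Il4ra probe set, 1423996_a_at, gave 9.63, 9.53 and 9.45 on the MACA 12 h arrays, against 9.28, 8.71, 9.24 and 8.80 for BSA 12 h and 8.96, 8.88, 9.27 and 8.79 for HBSS 12 h. It too had the MACA arrays above the other 8. Its log2 fold at 12 h was 0.56 against HBSS (limma adjusted p = 0.0238, over all probe sets) and 0.53 against BSA (adjusted p = 0.0571). At 3 h it was 0.47 against HBSS (adjusted p = 0.0996) and 0.59 against BSA (adjusted p = 0.0474). The last Il4ra probe set, 1447858_x_at, was under the noise level on all 21 arrays.

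Il13ra1, the partner chain that completes the IL-13 receptor, was higher in MACA than in BSA lungs at 12 h and was not called in the other MACA to control comparisons. At 12 h its level was 8.56, 9.05 and 8.87 on the MACA arrays, against 8.65, 8.22, 8.42 and 8.01 for BSA and 8.17, 8.42, 8.60 and 8.58 for HBSS. MACA 12 h replicate 1 lay inside the range of both control groups. The 3 h levels were 8.64, 8.86, 8.42 and 8.80 for MACA, against 8.54, 8.51 and 8.50 for BSA and 8.34, 8.54 and 8.58 for HBSS, and these groups overlapped.

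For Il13ra1, MACA against BSA at 12 h gave a log2 fold of 0.50 ± 0.15 (SE), which passed the test (limma adjusted p = 0.0446). That call held in 6 of 21 fits that each left out 1 array, with adjusted p from 0.0119 to 0.211, and was 0.41 after adjustment for the technical set (adjusted p = 0.153). It was also lost with all probe sets adjusted together (adjusted p = 0.0536). MACA against HBSS at 12 h gave 0.38 ± 0.15, with a 95% interval of 0.06 to 0.70, and did not pass (limma adjusted p = 0.0832), but did without MACA 12 h replicate 1 (0.52, adjusted p = 0.0393). At 3 h the log2 folds were 0.20 against HBSS (adjusted p = 0.475) and 0.16 against BSA (adjusted p = 0.594).

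The 3 dimmer Il13ra1 probe sets that were over the noise level had the same direction at 12 h. Probe set 1427164_at had a log2 fold of 0.47 against HBSS (limma adjusted p = 0.0205) and of 0.63 against BSA (adjusted p = 0.00849). Probe set 1451775_s_at had 0.42 against HBSS (adjusted p = 0.0302) and 0.46 against BSA (adjusted p = 0.0355). Probe set 1454783_at had 0.30 against HBSS (adjusted p = 0.246) and 0.56 against BSA (adjusted p = 0.0520). The mean over the probe sets of Il13ra1 passed against HBSS at 12 h, at 0.41 (adjusted p = 0.0332). The last, 1425625_at, was under the noise level on all 21 arrays.

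**Figure D3:**
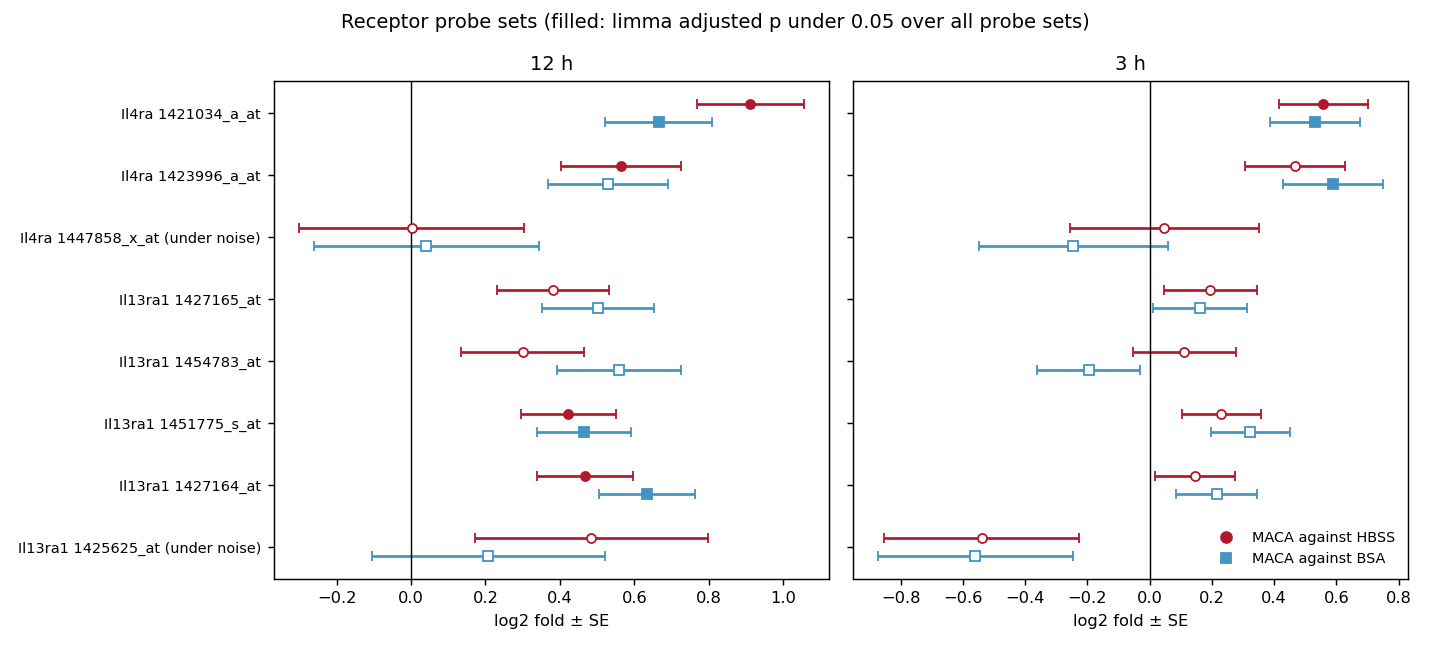
Log2 fold ± SE of every Il4ra and Il13ra1 probe set for MACA against HBSS and MACA against BSA, with 12 h and 3 h in separate panels. Filled points passed limma at an adjusted p under 0.05 over all probe sets. At 12 h all probe sets over the noise level lie to the right of 0, from 0.30 to 0.91.

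Retnla, a small secreted protein of alternatively activated macrophages and airway epithelium, had its highest levels in MACA lungs at 12 h. There it was 13.03, 13.07 and 12.95, against 12.05, 9.51, 12.63 and 12.54 on the BSA 12 h arrays and 10.20, 10.46, 12.45 and 11.48 on the HBSS 12 h arrays. The MACA arrays were close together and above all others, while each control group ran from low to high. The 3 h levels were 10.36, 11.02, 10.20 and 10.58 for MACA, against 9.30, 9.58 and 9.46 for BSA and 10.75, 10.78 and 10.17 for HBSS. The 3 BSA 3 h arrays lay below every MACA 3 h and HBSS 3 h array.

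The 12 h controls varied more for Retnla than for almost any other gene. Its SD in BSA 12 h, 1.47, was above that of 99.8% of genes, and in HBSS 12 h, 1.03, above 99.7%, whereas in MACA 12 h, 0.06, it was above 17.9%. In BSA 12 h the high-set replicates 1 and 2 gave 12.05 and 9.51, and the low-set replicates 3 and 4 gave 12.63 and 12.54. All 4 HBSS 12 h arrays are of the low set, so their range, 10.20 to 12.45, lies within 1 set.

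Retnla was 3.66-fold higher in MACA than in HBSS lungs at 12 h, a log2 fold of 1.87 ± 0.61 (SE; limma adjusted p = 0.0377). The call was lost without MACA 12 h replicate 1 (adjusted p = 0.0866), 2 (0.109) or 3 (0.0792) and without HBSS 12 h replicate 1 (0.102), 2 (0.101) or 4 (0.0524), and in a fit of only these groups (0.0637). Adjusted for the set, the log2 fold was 2.63 (adjusted p = 0.0374). Against BSA at 12 h the log2 fold was 1.34 ± 0.61, with a 95% interval of 0.06 to 2.62, and did not pass (limma adjusted p = 0.181) although the arrays did not overlap. Within the high set that value was 2.21 (adjusted p = 0.0748).

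At 3 h Retnla had a log2 fold of -0.03 in MACA against HBSS lungs (limma adjusted p = 1). Its log2 fold was 1.09 in MACA against BSA lungs (adjusted p = 0.315) and -1.12 in BSA against HBSS lungs (adjusted p = 0.572). Neither passed, although in both the arrays did not overlap.

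Between the times, Retnla rose 5.58-fold in MACA lungs, a log2 fold of 2.48 ± 0.61 for 12 h over 3 h (limma adjusted p = 0.0145). With Rnase2a it made 2 of 7 genes called higher at 12 h in MACA lungs, beside 5.59% of all genes. The call was lost without MACA 12 h replicate 2 (adjusted p = 0.0566), and the log2 fold was 2.29 within the high set (adjusted p = 0.0469). In BSA lungs Retnla also rose, by a log2 fold of 2.23 ± 0.61 (adjusted p = 0.0426), 1 of 7 genes beside 3.37% of all genes, but with overlapping arrays. That call held in 7 of 21 fits that left out 1 array, with adjusted p from 0.00134 to 0.122, and was 1.86 after adjustment for the set (adjusted p = 0.150). In HBSS lungs the log2 fold was 0.58 (adjusted p = 0.633), and 0 of 7 genes were called, beside 7.88% of all genes in either direction (0 of 7 also at an unadjusted p under 0.05). The MACA to HBSS difference was 1.90 larger at 12 h than at 3 h on the log2 scale, which did not pass (limma adjusted p = 0.225).

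Chil3 encodes Ym1, a secreted chitinase-like protein of alveolar macrophages, and was bright in all 6 groups with no call in any comparison. At 12 h it was 11.25, 10.68 and 10.01 on the MACA arrays, against 11.32, 10.57, 11.09 and 10.69 for BSA and 10.80, 10.96, 10.68 and 9.61 for HBSS. The 3 h levels were 10.70, 10.26, 9.66 and 10.30 for MACA, against 9.96, 10.48 and 10.33 for BSA and 10.72, 10.92 and 9.94 for HBSS. Every pair of neighbours in the order of the 6 group means overlapped. The BSA 12 h arrays all lay above the BSA 3 h arrays, a log2 fold of 0.66 that did not pass (limma adjusted p = 0.278). The MACA to HBSS log2 fold at 12 h was 0.14, with a 95% interval of -0.61 to 0.88 (limma adjusted p = 0.856), so a change of up to 0.88 on the log2 scale is within the error. The MACA to BSA log2 fold at 12 h was -0.27 (adjusted p = 0.699).

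Mrc1 encodes the mannose receptor CD206, a surface lectin of alveolar and tissue macrophages and of some endothelium. At 12 h its level was 9.35, 9.29 and 9.19 on the MACA arrays, against 9.69, 9.73, 9.03 and 9.05 for BSA and 9.52, 9.81, 9.26 and 9.09 for HBSS. At 3 h it was 9.63, 9.64, 9.36 and 9.17 for MACA, against 9.66, 9.51 and 9.76 for BSA and 10.01, 9.75 and 9.28 for HBSS. Neighbours in the order of the means overlapped, and MACA 12 h had the lowest mean of the 6, 9.28 ± 0.09, while HBSS 3 h had the highest, 9.68 ± 0.37. The MACA to HBSS log2 fold at 12 h was -0.14, with a 95% interval of -0.59 to 0.30 (limma adjusted p = 0.706), and -0.66 after adjustment for the technical set (adjusted p = 0.0545). BSA 12 h replicates 3 and 4, of the low set, were lower than replicates 1 and 2, of the high set.

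Alox15, a lipoxygenase that oxidizes arachidonic and linoleic acid, had no measurable level on most arrays. Its highest value, 6.07 on BSA 12 h replicate 3, was the 1 value over the noise level, and the MACA 12 h arrays gave 4.46, 5.13 and 5.73. No fold is given for it, since both groups of each MACA to HBSS comparison were under the noise level.

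Rnase2a, a ribonuclease of the eosinophil-associated family, was over the noise level on the 3 MACA 12 h arrays and on no other array. It measured 6.46, 6.54 and 6.55 there, against 4.00, 4.66, 4.00 and 4.80 for BSA 12 h and 4.40, 4.00, 4.76 and 4.00 for HBSS 12 h. At 3 h it ran from 4.00 to 4.93 for MACA, from 4.00 to 4.94 for BSA and from 4.00 to 5.28 for HBSS, where 4.00 is the floor of the scale. The deposited intensities of the 3 MACA 12 h arrays were 56.75, 74.71 and 71.39, and the highest on any other array was 16.47. Its level in MACA 12 h lungs was thus low, yet separate from the other 5 groups.

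Rnase2a was at least 1.61-fold higher in MACA than in HBSS lungs at 12 h (limma adjusted p = 0.000225) and at least 1.61-fold higher than in BSA lungs (adjusted p = 0.000833). It was also at least 1.61-fold higher at 12 h than at 3 h in MACA lungs (limma adjusted p = 0.000436). The bound is the same each time because it sets the MACA 12 h mean against the noise level. These 3 calls held without each of the 21 arrays in turn, and after adjustment for the technical set the adjusted p values were 0.00684 against HBSS, 0.00448 against BSA and 0.00216 between the times. Within the high set the call against BSA also held (adjusted p = 0.0233), but not in a fit of only these groups (adjusted p = 0.0514). The annotation gives its probe set to Rnase2a alone. Whether that probe set separates it from near-identical copies of its family was not tested, so which copy gave the signal is uncertain.

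The MACA to HBSS difference of Rnase2a was larger at 12 h than at 3 h (limma adjusted p = 0.00900). The fitted size, 2.57 ± 0.44 on the log2 scale (SE), has no exact meaning, since all groups but MACA 12 h were under the noise level on every array. This was 1 of 7 genes beside 2.07% of all genes called higher. The difference against BSA also passed (adjusted p = 0.0368), 1 of 7 genes beside 0.218% of all genes, with a fitted size of 2.16 ± 0.44 under the same limit. The change against HBSS held without each array, but not after adjustment for the technical set (2.25, adjusted p = 0.0691), and the change against BSA held in 11 of 21 fits that left out 1 array, with a largest adjusted p of 0.0934.

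None of the 7 genes passed the test between BSA and HBSS lungs. At 12 h 0 of 7 were called by limma beside 1.35% of all genes in either direction, and at 3 h 0 of 7 beside 0.178%, with 0 of 7 also at an unadjusted p under 0.05 at each time. The largest log2 fold of a gene over the noise level was the -1.12 of Retnla at 3 h.

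The other genes of the pathway were described from lists that hold none of the 7. Of 7 type 2 cytokines and alarmins, Il4, Il5, Il9, Il13 and Il25 were under the noise level on all arrays, so no transcript of the ligands of Il4ra was measurable in whole lung at these times. Il33, an alarmin released by damaged epithelium, averaged 10.70 ± 0.13 in MACA 12 h, against 9.50 ± 0.45 in BSA 12 h and 9.73 ± 0.29 in HBSS 12 h (SD). Its log2 fold was 0.97 against HBSS (limma adjusted p = 0.00566) and 1.20 against BSA (adjusted p = 0.00359), and after adjustment for the technical set 0.51 against HBSS (adjusted p = 0.196). At 3 h 0 of the 7 were called against HBSS. The summed intensity of the 7 was higher in the controls at 3 h than at 12 h. It ran from 1451 to 1862 in BSA 3 h and from 1271 to 1902 in HBSS 3 h. At 12 h it ran from 652 to 1220 in BSA and from 811 to 1199 in HBSS. In MACA lungs it ran from 1897 to 2673 at 3 h and from 1566 to 1855 at 12 h. By limma 2 of the 7 were lower at 12 h than at 3 h in BSA and in HBSS lungs, and 1 in MACA lungs. Tslp, the other epithelial alarmin, was chosen after its values were seen: it averaged 6.29 ± 0.25 in MACA 12 h, against 6.73 ± 0.23 in HBSS 12 h, and was not called.

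Of 10 receptor partners and signalling genes measured, 6 were higher and 1 was lower in MACA than in HBSS lungs at 12 h, beside 10.2% and 10.1% of all genes, with a median log2 fold of 0.45 against -0.00 for all genes. Adjusted for the set, the counts were 4 higher and 1 lower. Without scaling Jak1 and Jak2, 2 of the 6, fell to -0.19 and -0.23, still above the -0.57 of all genes. Jak3, the kinase of the common gamma chain that Il4ra pairs with on leukocytes, had a mean of 8.72 ± 0.30 in MACA 12 h, against 7.96 ± 0.24 in BSA 12 h and 7.62 ± 0.16 in HBSS 12 h (SD). Its log2 fold against HBSS was 1.10 (limma adjusted p = 0.000555). Socs1, an inhibitor of JAK kinases, was at least 2.02-fold higher (adjusted p = 0.00400), and Ptpn6, the phosphatase SHP-1, had a log2 fold of 0.84 (adjusted p = 0.000886). The 1 lower gene was Irs1, an adaptor of the IL-4 receptor, at -0.71 (adjusted p = 0.00360), and Stat6 itself, at 0.18, was not called (adjusted p = 0.158). Both were chosen after their values were seen.

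At 3 h, 2 of these 10 genes were higher in MACA than in HBSS lungs, beside 4.84% of all genes. They were Socs1, with a log2 fold of 1.39 (limma adjusted p = 0.00316), and Jak2, with 0.40 (adjusted p = 0.0278). Without MACA 3 h replicate 2 or HBSS 3 h replicate 3, 1 was higher, and without MACA 3 h replicate 1, 3 were higher and 1 was lower. Against BSA, 2 were higher and 1 was lower at 12 h, beside 4.07% and 5.58% of all genes. Leaving out MACA 12 h replicate 2 left 0 higher. At 3 h, 3 were higher and 1 was lower against BSA, beside 3.5% and 2.45% of all genes. Without BSA 3 h replicate 1 or 2 the higher count was 1 or 0.

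The list of IL-4 and IL-13 responsive and alternative activation genes held 28 genes. Of these, 13 were higher and 0 lower in MACA than in HBSS lungs at 12 h, beside 10.2% and 10.1% of all genes. Their median log2 fold was 0.57, against -0.00 for all genes. Adjusted for the set, the 12 h counts were 12 higher and 3 lower. At 3 h 7 were higher and 1 was lower, beside 4.84% and 3.28% of all genes, with a median of 0.02 against -0.02 for all genes. Without MACA 12 h replicate 2 the 12 h count was 8 higher, and without HBSS 3 h replicate 3 the 3 h count was 3 higher and 0 lower. Among the 13 higher at 12 h was Retnlb (limma adjusted p = 0.0296), chosen after its values were seen. Its log2 fold was 0.43 over controls at the floor of the scale, so all its 12 h levels were under the noise level. Adjusted for the set, Retnlb was not called (adjusted p = 0.129). The iodide and chloride exchanger Slc26a4, a gene of airway epithelium, averaged 10.97 ± 0.17 in MACA 12 h, against 7.95 ± 1.41 in BSA 12 h and 6.71 ± 1.26 in HBSS 12 h (SD). It was as high in MACA 3 h, at 10.91 ± 0.34, against 7.12 ± 0.92 in BSA 3 h and 8.47 ± 1.06 in HBSS 3 h. Its 3 h log2 fold against HBSS, 2.45, passed narrowly (limma adjusted p = 0.0489) and held in 4 of 21 fits that left out 1 array.

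Of the same 28 genes, the chemokine Ccl22 averaged 8.77 ± 0.18 in MACA 12 h, against 6.75 ± 0.92 in BSA 12 h (SD), and had a log2 fold of 2.78 against HBSS. In MACA 3 h it averaged 8.19 ± 0.40, against 5.67 ± 0.51 in BSA 3 h and 6.30 ± 0.24 in HBSS 3 h. Ccl24, an attractant of eosinophils, averaged 7.56 ± 0.94 in MACA 12 h, against 4.44 ± 0.67 in BSA 12 h and 4.00 in HBSS 12 h, and was under the noise level on every 3 h array. Like Rnase2a, it was thus over the noise level in MACA lungs at 12 h alone. The chemokine Ccl17 had a log2 fold of 1.89 against HBSS at 3 h (limma adjusted p = 0.0128). Arg1, the alternative activation marker outside the 7 genes, was chosen after its values were seen. At 12 h it was higher in MACA than in HBSS lungs (limma adjusted p = 0.000415) and than in BSA lungs (adjusted p = 0.000872). Both calls held without each of the 21 arrays, and adjusted for the set the adjusted p against HBSS was 0.00182. The 1 lower gene at 3 h was Klf4, a transcription factor of macrophages and epithelium, at -0.94 (adjusted p = 0.0391), chosen after its value was seen. Against BSA, 9 of the 28 were higher at 12 h and 7 at 3 h, beside 4.07% and 3.5% of all genes. At either time 0 were lower, beside 5.58% and 2.45% of all genes. Without MACA 12 h replicate 2, 4 were higher at 12 h. The 9 included Retnlb, under the noise level, whose call (limma adjusted p = 0.0499) held in 1 of 21 fits that left out 1 array.

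**Figure D4:**
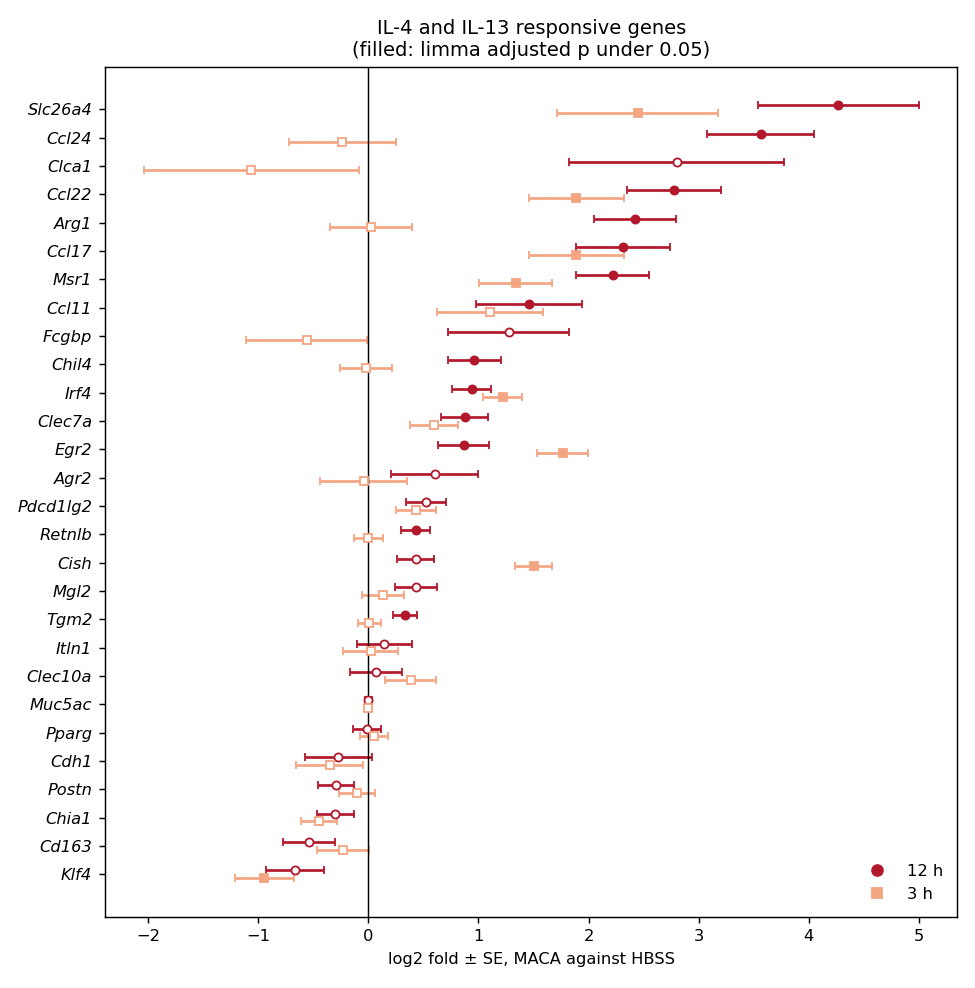
Log2 fold ± SE of the IL-4 and IL-13 responsive and alternative activation genes, MACA against HBSS, at 12 h and at 3 h. Filled points passed limma at an adjusted p under 0.05: 13 were higher at 12 h, and 7 higher and 1 lower at 3 h. The filled 12 h point of Retnlb rests on levels under the noise level.

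Of 8 lipoxygenase pathway genes measured, 1 was lower and 0 higher in MACA than in HBSS lungs at 12 h. That stood beside 10.1% and 10.2% of all genes, so the lower count is near the share of all genes. At 3 h 0 were called by limma, beside 4.84% of all genes higher and 3.28% lower. The lower gene was Ltc4s, the synthase of leukotriene C, which averaged 5.55 ± 0.06 in MACA 12 h, against 7.36 ± 0.40 in BSA 12 h and 7.06 ± 0.46 in HBSS 12 h (SD). It was at least 2.35-fold lower than in HBSS lungs (limma adjusted p = 0.00167) and at least 2.88-fold lower than in BSA lungs (adjusted p = 0.0013). Adjusted for the technical set, the log2 fold against HBSS was -0.95 (adjusted p = 0.0684).

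Defining markers of eosinophils were not measurable. Of 10 markers, 6 had a probe set given to their symbol alone. Ear1, Ear2, Ear6 and Ear10, of the same ribonuclease family as Rnase2a, had none and were not measured here. The granule proteins Epx, Prg2 and Prg3, the eotaxin receptor Ccr3 and the IL-5 receptor Il5ra were under the noise level on all 21 arrays. Siglecf, which alveolar macrophages also carry, was over it on 20 arrays and had a log2 fold of -0.56 in MACA against HBSS lungs at 12 h (limma adjusted p = 0.173). The summed intensity of the 6 markers ran from 75.6 to 148 in MACA 12 h (median 85.6), from 75.6 to 175 in BSA 12 h (median 134) and from 97.5 to 188 in HBSS 12 h (median 148). At 3 h it ran from 80.9 to 133 in MACA, from 121 to 146 in BSA and from 119 to 174 in HBSS. In every group 5 of the 6 were under the noise level, so these sums hold Siglecf and background and give no level of eosinophils. No eosinophil marker was called in any comparison by limma (0 of 6, and 0 at an unadjusted p under 0.05). Without MACA 12 h replicate 3, 1 of the 6 that lies under the noise level was called higher against HBSS at 12 h. Apart from Siglecf, none of the 6 measured eosinophil markers was thus over the noise level in the MACA 12 h lungs, where Rnase2a was. That does not cover the other ribonucleases of its family.

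Markers of other leukocytes moved with MACA, and their part in the levels of the 7 genes was not tested. Of 13 neutrophil markers, 6 were higher and 0 lower against HBSS at 12 h, beside 10.2% and 10.1% of all genes. At 3 h 7 were higher and 0 lower, beside 4.84% and 3.28% of all genes. Their summed intensity ran from 4569 to 8211 in MACA 12 h, from 3111 to 7160 in BSA 12 h and from 1871 to 3161 in HBSS 12 h. At 3 h it ran from 7832 to 12042 in MACA, from 1581 to 4327 in BSA and from 1157 to 3604 in HBSS. Of the markers Cxcr2 had a log2 fold of 2.12 at 12 h (limma adjusted p = 0.0164), Il1r2 was at least 3.05-fold higher (adjusted p = 0.00221) and S100a9 had 2.37 at 3 h (adjusted p = 0.0216). Adjusted for the set, 1 of the 13 was higher at 12 h, and the adjusted p was 0.174 for Cxcr2 and 0.0600 for Il1r2. Without MACA 12 h replicate 1 or 2, 3 were higher at 12 h, and without HBSS 3 h replicate 3, 3 were higher at 3 h.

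Macrophage markers split. Of 15 alveolar macrophage markers, 4 were higher and 3 lower in MACA than in HBSS lungs at 12 h, beside 10.2% and 10.1% of all genes. Marco, a scavenger receptor, was at least 2.33-fold higher (limma adjusted p = 0.000332, or 0.00797 after adjustment for the set). The lipid-binding Fabp4 had a log2 fold of -1.95 (adjusted p = 0.0253), or -0.64 after adjustment for the set (adjusted p = 0.557). The other lower markers, Fabp1 and Fabp5, chosen after their values were seen, kept their calls after that adjustment (adjusted p = 0.0337 and 0.00115). Of the higher markers, Olr1 lost its call after it (adjusted p = 0.184). The summed intensity of the 15 markers ran from 12868 to 15072 in MACA 12 h and from 12772 to 14056 in HBSS 12 h. Of 18 monocyte and tissue macrophage markers, 6 were higher and 0 lower at 12 h, beside the same shares, with 3 higher after adjustment for the set. Itgam was at least 2.29-fold higher (adjusted p = 5.33e-05), the chemokine receptor Ccr2 had a log2 fold of 1.32 (adjusted p = 0.00449) and Cd68 had 1.16 (adjusted p = 0.0075). After adjustment for the set, Ccr2 had 0.48 (adjusted p = 0.227) and Cd68 0.68 (adjusted p = 0.196). Their summed intensity ran from 35184 to 36865 in MACA 12 h, from 32378 to 36441 in BSA 12 h and from 32807 to 34762 in HBSS 12 h.

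At 3 h, 2 of the 15 alveolar macrophage markers were higher and 2 lower in MACA than in HBSS lungs. The shares of all genes were 4.84% and 3.28%. The lower count was 0 without MACA 3 h replicate 3 or 4 or HBSS 3 h replicate 1 or 2. The higher ones included Plet1, with a log2 fold of 1.15 (limma adjusted p = 0.00022), and the lower ones Krt79, with -0.69 (adjusted p = 0.0391). Of the 18 monocyte and tissue macrophage markers, 3 were higher at 3 h, beside 4.84% of all genes. Among these, Cd14 had a log2 fold of 2.23 (adjusted p = 0.0082) and Itgam was at least 1.50-fold higher (adjusted p = 0.00395).

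The remaining marker lists, apart from that of alveolar epithelium, moved little between MACA and HBSS lungs. At 12 h 1 of 11 basophil and mast cell markers was higher and 1 lower, near the 10.2% and 10.1% of all genes. The same counts held for 11 T cell and innate lymphoid markers, where Klrg1 had a log2 fold of 0.94 (limma adjusted p = 0.00496) and Rora -0.56 (adjusted p = 0.00989). The higher basophil and mast cell marker was Cpa3 (adjusted p = 0.0190), and the lower one, the mast cell receptor Kit, had -0.27 (adjusted p = 0.0400). No gene of either list was called after adjustment for the set (0 by limma). The adjusted p was then 0.0993 for Klrg1, 0.0638 for Rora, 0.0525 for Cpa3, which stayed on the higher side, and 0.0507 for Kit. None of 9 goblet and airway secretory markers and none of 6 lymphatic endothelial markers was called by limma at either time (0 at each; at an unadjusted p under 0.05, 1 goblet marker at 12 h and 1 lymphatic marker at each time). These small counts moved by 1 or 2 without single arrays: without MACA 12 h replicate 3 the 12 h counts were 0 higher and 0 lower for basophil and mast cell markers, 2 higher and 1 lower for T cell and innate lymphoid markers, and 1 higher for goblet markers. All 7 alveolar epithelial markers were over the noise level on all 21 arrays, and 2 were higher at 12 h, beside 10.2% of all genes. They were Aqp5 at 0.60 (adjusted p = 0.00457) and Sftpc at 0.19 (adjusted p = 0.00985), which without scaling were -0.07 and -0.27 beside -0.57 for all genes. Both calls held without each of the 21 arrays and after adjustment for the set (adjusted p = 0.0219 for Aqp5 and 0.0218 for Sftpc).

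**Figure D5:**
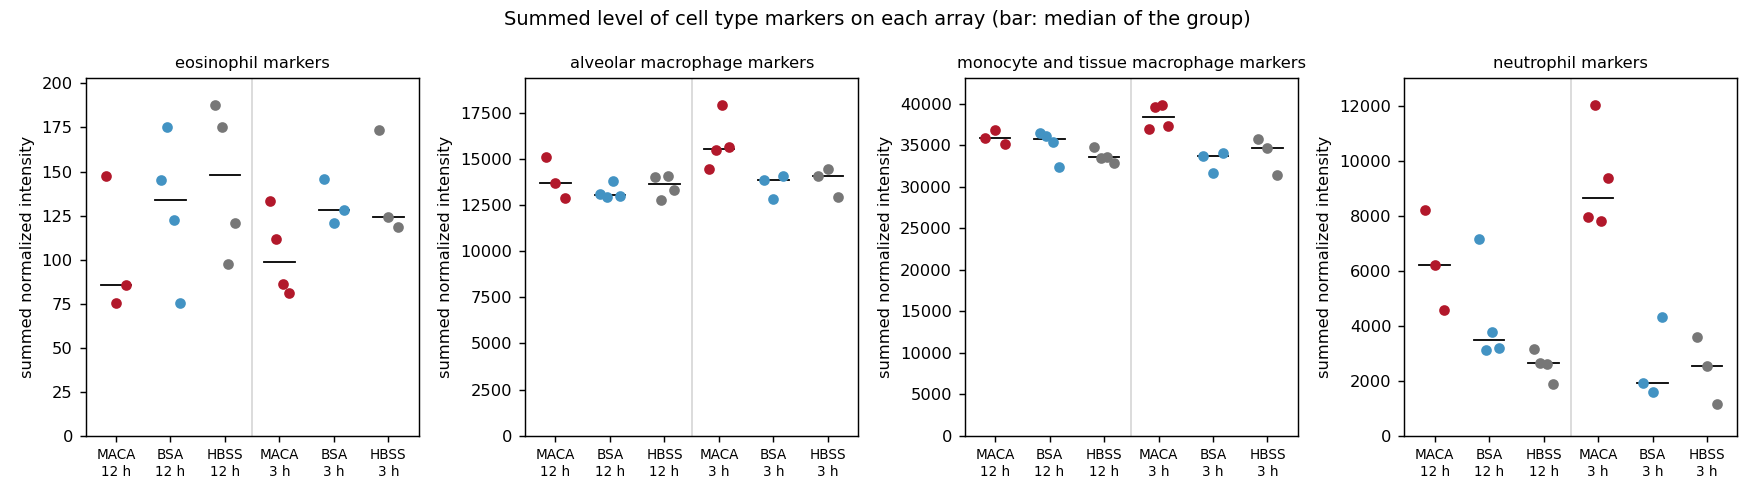
Summed normalized intensity of the markers of each cell type on every array, by group, with a bar at the median of the group. Neutrophil markers are highest in MACA 3 h, from 7832 to 12042, and eosinophil markers stay between 75.6 and 188 in every group. Of the 6 eosinophil markers, 5 are under the noise level, so their sum is Siglecf and background.

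The order of the 6 group means differed among the 7 genes. For Il4ra the order was MACA 12 h, MACA 3 h, BSA 12 h, BSA 3 h, HBSS 3 h and HBSS 12 h, and neighbours overlapped except for HBSS 3 h and HBSS 12 h. For Retnla MACA 12 h came first, clear of BSA 12 h, and BSA 3 h came last, clear of MACA 3 h, with the neighbours between them overlapping. Il13ra1 ran from MACA 12 h, with a mean of 8.83 ± 0.25, to BSA 12 h, with 8.32 ± 0.27, and all neighbours overlapped.

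Across the 21 arrays, which share their group means and the normalization, Il4ra and Il13ra1 had a Pearson correlation of 0.728. Retnla correlated with Rnase2a at 0.535 and with Mrc1 at -0.569. Among 9446 genes over the noise level on at least 3 arrays, those most like Il4ra were Pdlim7 (0.945), Marcksl1 (0.943) and Nup62 (0.926). Pdlim7 averaged 9.46 in MACA 12 h, 8.74 in BSA 12 h and 8.65 in HBSS 12 h, and 9.36 in MACA 3 h, 8.77 in BSA 3 h and 8.79 in HBSS 3 h.

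Those most like Retnla were Pycard (0.930), Cp (0.918) and Tmem176a (0.891). Pycard averaged 8.38 in MACA 12 h, 7.82 in BSA 12 h and 7.64 in HBSS 12 h, and 7.40 in MACA 3 h, 6.86 in BSA 3 h and 7.45 in HBSS 3 h, so it shared the low BSA 3 h level of Retnla. Cp, the copper-binding plasma protein ceruloplasmin, averaged 11.81 in MACA 12 h, 11.11 in BSA 12 h and 10.89 in HBSS 12 h. Il13ra1 was closest to Nbn (0.782), Lbp (0.774) and Ino80c (0.773). Mrc1 was closest to P2ry14 (0.827), Pag1 (0.818) and Blzf1 (0.812). The values for Chil3, with Ms4a8a at 0.696, Tmem41b at 0.681 and Cd300c2 at 0.665, were the lowest of the 7. Those for Alox15, with Gabrp at 0.812, Top2a at 0.800 and Ap2b1 at 0.776, rest on levels over the noise level on 1 array. Those for Rnase2a, with Cmpk2 at 0.818, Aif1 at 0.815 and Naip2 at 0.813, rest on levels over it on the 3 MACA 12 h arrays alone.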

How the data were processed

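Per the labels' protocols, RNA of the snap-frozen, homogenised left lung was labelled and hybridised. The authors deposited linear intensities of 22690 probe sets for 21 arrays, of which 9.38% to 11.2% per array are negative. How the intensities were scanned, summarized or scaled is not given in the sources used here, and their array medians (93.0 to 287) show no common level.

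Here, 64 control probe sets were left out, intensities were quantile normalized, negative values were replaced by 0, and a pseudocount of 16 was added before log2. Of 22626 probe sets, 20380 had 1 symbol in the platform annotation, 691 several and 1555 none, and symbols were updated through RefSeq (GRCm38.p6). The brightest probe set stood for each of 12393 genes. The size of the negative values, at its 95th percentile, gave the noise level. Where every array of 1 group was under it, the fold is a lower bound ("at least"): the mean of the brighter group over the noise level, or over the dim group where that was higher.

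limma 3.58.1 (R 4.3.3) fitted 6 group means with 15 residual degrees of freedom, in 11 comparisons, and was tested on simulated data. Figures came from matplotlib 3.10.9 under python 3.11.15. The genes, lists, tests and naming rule were chosen with earlier results of these data known. The rule named the 7 genes, up to 3 genes with the largest called change per list at 12 h and up to 2 at 3 h (MACA against HBSS), the defining eosinophil markers and the 3 genes most alike each of the 7. A gene outside the rule is marked as such where it stands.

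Nothing in the labels says what a replicate number shares. In BSA against HBSS at 12 h, same-numbered arrays deviated together in 4 of 4 pairs (correlations of 0.136 to 0.339), which came from the values alone. Arrays within a group had a median correlation of 0.988, and 0 pairs were identical. Their number limits the precision. Alternatives were other scalings, pseudocounts of 4 and 64, a filter on dim genes, other probe set rules, fewer groups in the fit, the technical set, a replicate block and leaving out each array.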

Additional observations from a re-analysis of the deposited data

Results flagged for a closer look

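Within its group, Il4ra on MACA 3 h replicate 3 was low, at 9.66 against 10.15 to 10.22 on the other MACA 3 h arrays, and the gap took 0.886 of the range of the group. On BSA 12 h replicate 1 Il4ra was high, at 9.80 against 9.42 to 9.46 on the other BSA 12 h arrays, a gap of 0.895 of the range. Of 21 pairs of a gene and a group that were examined for an array far from the rest these were the only 2, and chance gives about 1 in 20. MACA 3 h replicate 3 is of the low and BSA 12 h replicate 1 of the high technical set, and each group holds another array of that same set.

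For Rnase2a, the MACA to HBSS difference was larger at 12 h than at 3 h by 2.57 on the log2 scale (limma adjusted p = 0.00900), and the MACA to BSA difference by 2.16 (adjusted p = 0.0368). In both, the 3 MACA 12 h arrays were the only arrays over the noise level, so the size of the change depends on values under it.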

How the results depend on the processing

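Counts are genes of the 7 called by limma at an adjusted p under 0.05. Without scaling between arrays the count was 0 for MACA against HBSS at 3 h, 1 at 12 h, 0 for MACA against BSA at 3 h, 1 at 12 h, 1 for 12 h against 3 h in MACA, 0 in BSA, 2 in HBSS and 0 for the change of MACA minus BSA between times. There, among all genes, MACA against HBSS had 162 higher of 5574 called at 12 h, against 1258 of 2509, and 128 of 140 at 3 h, against 600 of 1006, the median of all genes shifted by 0.72 for 12 h against 3 h in HBSS, and Il13ra1 reversed to 0.77 (adjusted p = 0.0428) against -0.04. The change of MACA minus BSA gave 0 with a pseudocount of 4, with only the groups compared, with the technical set as a term and in the high set. Retnla between times in BSA gave 0 with all probe sets adjusted together, with only the groups compared, with the technical set as a term and in the high set. The Il4ra 3 h calls gave 0 with the mean over probe sets and with only the groups compared, and the one against BSA also in the high set. MACA against BSA at 12 h gave 0 with only the groups compared and 1 in the high set, and lost Il13ra1 with all probe sets adjusted together, and the change of MACA minus HBSS gave 0 with the technical set as a term. The cause of these changes was not tested. With a replicate block, for which 0 or 1 of 3 same-numbered pairs deviated together in the other comparisons, the counts were 0 for MACA against HBSS at 3 h, for MACA against BSA at 3 h, for BSA between times and for the change of MACA minus BSA. There Il13ra1 lost its call against BSA at 12 h (adjusted p = 0.0765), and no other call changed. Leaving out 1 array gave 0 to 1 for MACA against HBSS at 3 h, 2 to 3 at 12 h, 0 to 1 for MACA against BSA at 3 h, 1 to 3 at 12 h, 1 to 2 for MACA between times, 0 to 1 for BSA between times, 1 for the change of MACA minus HBSS and 0 to 1 for that of MACA minus BSA. Of the single values, 776 kept their direction and side of the threshold under a setting, 36 fell short of it, 2 newly passed and 1 reversed. Median scaling moved the split of calls among all genes to 337 higher of 873 for HBSS between times, against 504 of 977, to 310 of 588 for BSA between times, against 418 of 657, to 384 of 816 for MACA against BSA at 3 h, against 434 of 738, and to 287 of 449 for the change of MACA minus HBSS, against 256 of 484. Signal near background limits Rnase2a and Alox15.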

Other observations

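A probe set that the platform annotation gives to both Chil3 and its near-identical neighbour Chil4, 1425451_s_at, was left out of the 7 genes. It measured 10.91, 10.30 and 9.61 on the MACA 12 h arrays, against 11.05, 10.11, 10.37 and 9.72 for BSA 12 h and 10.04, 10.24, 9.67 and 8.40 for HBSS 12 h. The groups overlapped, and its log2 fold at 12 h was 0.68 for MACA against HBSS (limma adjusted p = 0.363) and 0.72 for BSA against HBSS (adjusted p = 0.440). It passed in none of the 11 comparisons. The probe set given to Chil4 alone, chosen after its value was seen, was higher in MACA than in HBSS lungs at 12 h (limma adjusted p = 0.00927). That call held in 20 of 21 fits that left out 1 array, and adjusted for the technical set the adjusted p was 0.0183.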
